A study of Brassica carinata x Brassica rapa with 9 samples.

Results

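The 150 genes described here were the most abundant of the genes whose expression was highest in anthers of a synthetic Brassica allohexaploid. They were selected on measured expression: a gene was taken when its mean FPKM (fragments counted per unit of gene length and of library depth) was higher in Anther than in Ovule and Leaf and when at least 1 Ovule or Leaf library held a value above 0, and the 150 such genes with the highest Anther mean were kept. Of 100804 genes in all, 42250 had their highest mean in Anther, 32302 of these met the second condition, and 150 were taken. High expression in Anther is therefore a property of the choice and is described without a test. The choice did not use the subgenome or the order of the 3 Anther libraries, and it touched the difference between Ovule and Leaf only through the limit that the Anther mean sets on both and the value above 0 that it asks of either.

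RNA came from 3 tissues of 1 kind of plant, an allohexaploid grown in a greenhouse with no treatment named and identified by its chromosomes, which combines the A-genome of B. rapa with both genomes (B and C) of B. carinata. Anther held anthers collected from meiosis up to mature pollen, Ovule held ovules collected from meiosis up to the mature embryo sac, and Leaf held young leaves as the vegetative control. Each tissue had 3 libraries, 9 in all, which the study describes as biological replicates, and p-values cover only the spread between these libraries. An Anther library thus covers a range of stages and all cell layers, and the sources used here do not give the stages in each library. Fewer cells of a type and less RNA per cell cannot be told apart in such bulk samples. The labels and the paper name opposite parents as male and female. Identifiers that begin with Bra, BniB and Bol belong to the A-, B- and C-genome. Reads of near-identical copies may have been divided between them or left uncounted, so levels of single copies are uncertain to that extent.

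An anther consists of sporogenous cells that pass through meiosis to become pollen and of wall layers around them, the innermost of which is the tapetum. In Arabidopsis the tapetum makes the precursors of sporopollenin, the polymer of the outer pollen wall, and exports them to the developing microspores before it degenerates. Pollen grains then store transcripts used in late maturation and in growth of the pollen tube. Genes of these steps are known to be expressed in the anther at different stages, some for a short time only.

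Genes that the study lists for male gamete development were used to describe the tissues. They cannot test the tissue labels, since the list was drawn from these same libraries. The 51 genes of that list, which the authors chose on these libraries, are tapetum regulators and genes of the pollen wall, and their summed expression was 14735, 8574 and 15718 FPKM in Anther 1, 2 and 3. In Ovule 1, 2 and 3 the sum was 40.8, 67.0 and 145 FPKM, with 35, 8 and 1 of the 51 genes at 0. In Leaf the sum was 25.4, 27.8 and 26.3 FPKM, with 39, 43 and 42 genes at 0. The list of 23 genes for female gamete development summed to 87.6, 79.4 and 74.7 FPKM in Anther, 260.1, 228 and 244 FPKM in Ovule and 24.1, 27.5 and 22.2 FPKM in Leaf. The list of 37 genes for both gametes summed to 136, 370 and 157 FPKM in Anther 1, 2 and 3. Its sums were 88.9, 92.6 and 85.9 FPKM in Ovule and 6.44, 8.31 and 6.09 FPKM in Leaf. Among the Anther libraries it was thus highest in Anther 2, where the male list was lowest. Of the 150 genes, 20 were in the male list, 0 were in the female list and 0 were in the list of 37 genes for both gametes. The other 130 carry no gene name in the sources used here and are given by identifier.

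Reads on genes, recovered from the whole steps in which FPKM values lie, came to 15055963 to 15505797 for Anther, 15105362 to 15507652 for Ovule and 8672401 to 10150472 for Leaf. The study also reports that a smaller share of reads mapped to the genomes in Leaf than in Anther or Ovule. Whether this bears on Leaf values at 0 or on differences between Ovule and Leaf was not tested. A value of 0 means that no read was counted, and a tissue at 0 is compared below with a floor of 3 reads per library. Among genes with many reads, the 3 Leaf libraries differed from each other by little more than counting error (a chi-square of 1.65 to 1.99 per gene for each pair, where 1 is counting error alone), the Ovule libraries by more (34.7 to 38.8) and the Anther libraries by most (59.3 to 228). The pairs with Anther 2 gave 174 and 228 and the pair without it gave 59.3, so Anther 2 stood apart from Anther 1 and 3. For most single genes named below the value in each Anther library is given, whereas counts and ranges of ratios are given without these values.

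Together the 150 genes held 13.6%, 13.0% and 14.0% of the summed FPKM of Anther 1, 2 and 3 (13.5% ± 0.542, SD, n = 3). The share was 0.954%, 1.16% and 1.06% in Ovule and 0.276%, 0.268% and 0.275% in Leaf. Counted in reads, which do not correct for length, the members took 10.1%, 7.43% and 10.5% of the reads on genes in Anther. The 2 measures therefore differed for Anther 2, where the members held almost the same share of FPKM as in the other Anther libraries and a smaller share of reads. The 10 most abundant members accounted for 4.52%, 6.20% and 5.02% of summed FPKM in Anther 1, 2 and 3.

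Anther means of the members ranged from 271 to 12065 FPKM with a median of 492 FPKM, and 32 members had at least 1000 FPKM, 42 had 500 to 1000 FPKM and 76 had less than 500 FPKM. At the lower limit the last genes taken were Bra022571, Bol013176 and Bol024688 with Anther means of 273, 273 and 271 FPKM. The next genes below it, Bra018575, Bol027627 and BniB042189, had 271, 267 and 266 FPKM, so the limit falls within a continuous range of levels. Another 4 genes reached a sufficient Anther mean (BniB041383 415 FPKM, Bol044227 351 FPKM, Bol007675 304 FPKM and BniB000976 280.2 FPKM) and were left out by the rule because no Ovule or Leaf library held a read of them.

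The most abundant member was Bra029135, an A-genome gene with a coding length of 255 bases, which had 9247, 17301 and 9646 FPKM in Anther, 0.505, 1.02 and 5.96 FPKM in Ovule and no read in Leaf (values are in the order of libraries 1, 2 and 3 throughout). Its Anther mean was 12065 ± 4539 FPKM (SD, n = 3), with Anther 2 far above the other libraries. The second, Bra009282, had 8847, 4901 and 8047 FPKM in Anther, 0.443, 10.5 and 77.2 FPKM in Ovule and no read in Leaf. Anther 2 was its lowest Anther library and Ovule 3 its highest Ovule library, and the Anther and Ovule libraries did not overlap. Bol028055, a C-genome gene, had 5403, 9003 and 4529.8 FPKM in Anther, 0.217, 0 and 2.45 FPKM in Ovule and no read in Leaf. BniB046707 of the B-genome had 4005, 8549 and 5043 FPKM in Anther, 0.219, 0.441 and 2.47 FPKM in Ovule and no read in Leaf. Bra028294 had 3556, 6901 and 4000.0 FPKM in Anther, 0, 0.675 and 1.84 FPKM in Ovule and no read in Leaf. These 3 genes were below 3 FPKM in each Ovule library and without a read in Leaf, and each was highest in Anther 2, as Bra029135 was. Bol025022 had 2013, 3680.1 and 1512 FPKM in Anther, 0, 0 and 0.717 FPKM in Ovule and no read in Leaf. Bol038654 had 2147, 3949 and 2916 FPKM in Anther, 2.15, 2.33 and 2.37 FPKM in Ovule and 0, 0.295 and 0.267 FPKM in Leaf, and its 3 Ovule values were almost equal. Both were again highest in Anther 2.

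Of the other members among the first 10, BniB039562 had 6649, 4581 and 4846 FPKM in Anther, 0.556, 6.72 and 37.7 FPKM in Ovule and no read in Leaf. Bra040627 had 2499.7, 3803 and 2772 FPKM in Anther, 2.91, 4.5 and 29.6 FPKM in Ovule and no read in Leaf. In both, Ovule 3 was well above the other Ovule libraries and far below every Anther library. BniB006475 was the exception among the 10, with 3176, 5545 and 10207 FPKM in Anther, 2985, 5139 and 3892 FPKM in Ovule and 182, 189.9 and 198 FPKM in Leaf. Its Anther and Ovule libraries overlapped, and it alone gave 28.9%, 41.4% and 33.4% of the members' summed FPKM in Ovule 1, 2 and 3. Except for this gene, the 10 most abundant members had coding lengths of 255 to 579 bases.

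**Figure D1:**
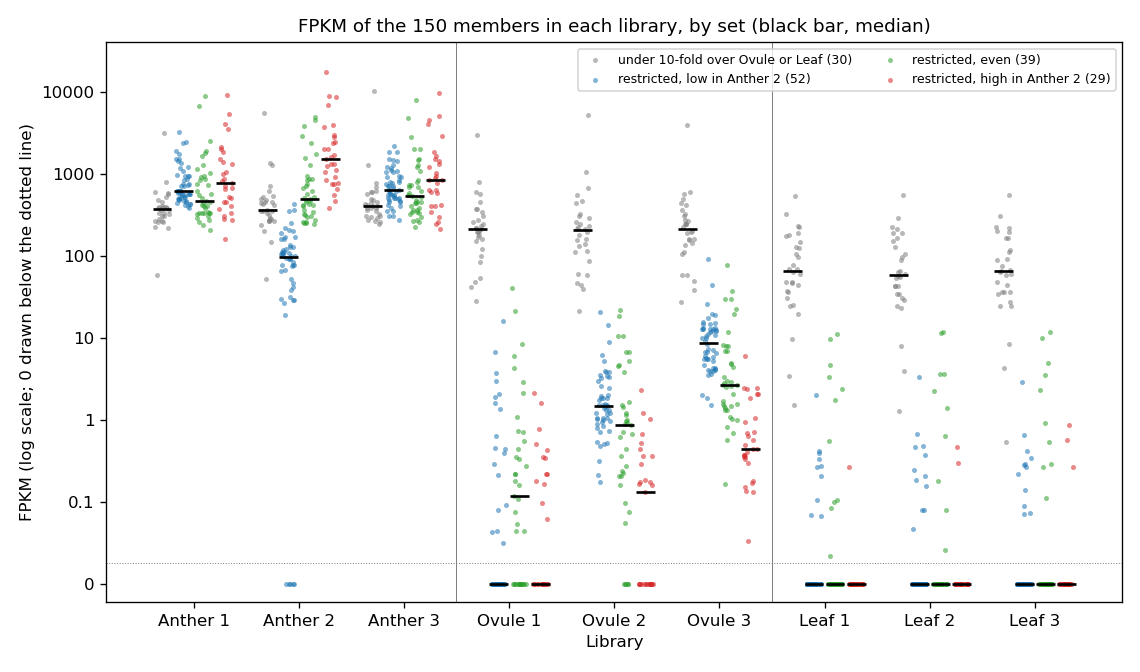
Each point is the FPKM (log axis) of 1 of the 150 genes in 1 of the 9 libraries, for 4 sets of genes defined in the text, and black bars are medians. The 30 genes drawn in grey have medians of 204 to 215 FPKM in Ovule and 57.9 to 65.6 FPKM in Leaf, whereas the other sets have medians of 0 to 8.76 FPKM in Ovule and 0 in Leaf, and the set of 52 genes has a median of 96.8 FPKM in Anther 2 against 611 and 636 FPKM in Anther 1 and 3.

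The ratio of the Anther mean to the Ovule mean spanned more than 4 orders of magnitude. It was at least 2 for 132 members, at least 10 for 120, at least 100 for 106 and at least 1000 for 35. Relative to Leaf, 147 members were at least 2-fold and 131 at least 10-fold higher in Anther, and for 86 not a single Leaf read was counted. All 150 had a read in Ovule, 82 of them in every Ovule library, and for 24 members the 3 Ovule libraries together held no more than 10 reads. The Anther and Ovule libraries did not overlap for 134 members and overlapped for 16. Higher non-overlapping values in Anther than in Ovule were found for 23.6% of all 75038 genes tested, and the rule itself produced the difference here. Against Leaf, Anther did not overlap for 144 members, where 52.7% of all genes tested behaved in this way, and here too the rule had selected for it.

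The highest ratios rested on very few Ovule reads. Bol032454 had 649, 1332 and 765 FPKM in Anther, 0, 0 and 0.15 FPKM in Ovule and no read in Leaf, and its ratio of 18314 is based on 1 read (95% exact Poisson interval 3287 to 723360.0, which covers counting error in Ovule only). Bol041792 had 519, 1052 and 589.7 FPKM in Anther, 0, 0 and 0.137 FPKM in Ovule and no read in Leaf, and again 1 Ovule read lay behind its ratio (15783, interval 2833 to 623395). With intervals this wide the order among such genes was not detectable at this depth. For BniB005797 the ratio was 12203 (4766 to 44786, 4 reads), for Bra036584 11497 (3183 to 94930.3, 2 reads) and for BniB013534 10143 (2808 to 83757, 2 reads). All 5 of these genes were without a read in Leaf, were highest in Anther 2, and were at least 1094-fold higher in Anther than the Leaf floor of 3 reads per library.

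At the other end, 30 members were less than 10-fold higher in Anther than in the higher of the other tissues, and they are called shared members below. The value of 10 was set after the ratios had been seen, and 4 members had ratios of 9 to 20. Shared members had median levels of 371, 357 and 404 FPKM in Anther 1, 2 and 3, 215, 204 and 212 FPKM in Ovule and 65.6, 57.9 and 65.0 FPKM in Leaf. Every shared member had reads in all 9 libraries. Although they were 30 of 150 genes, they gave 9.84%, 12.7% and 15.6% of the members' summed FPKM in Anther, 98.7%, 98.0% and 91.9% in Ovule and 98.8%, 98.7% and 98.7% in Leaf.

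The 5 members with the lowest ratios were Bra013576, Bra009595, Bol021262, Bra034603 and Bol024688. Bra013576 had 396, 621 and 684 FPKM in Anther, 451, 546 and 357 FPKM in Ovule and 542, 549 and 549.8 FPKM in Leaf, so that all 3 tissues overlapped and the highest mean was in Anther by a ratio of 1.04 only. Bra009595 had 379, 484 and 608 FPKM in Anther, 374, 468 and 574 FPKM in Ovule and 222, 225 and 225 FPKM in Leaf. Its Anther and Ovule libraries overlapped, and both tissues lay above every Leaf library. Bol021262 varied most in Ovule of these 5, with 383, 449 and 404 FPKM in Anther, 170.4, 677 and 325 FPKM in Ovule and 68.6, 59.9 and 58.5 FPKM in Leaf. Bra034603 was the most even of them, with 357, 318 and 323 FPKM in Anther, 303, 307 and 305 FPKM in Ovule and 189, 187 and 197 FPKM in Leaf. Here the 3 tissues did not overlap although the Anther mean was only 1.09 times the Ovule mean. Bol024688, the last gene taken, had 309, 234 and 271 FPKM in Anther, 258, 260.2 and 223 FPKM in Ovule and 123, 105 and 112 FPKM in Leaf, and its Anther and Ovule libraries overlapped.

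Shared members also included the genes with the highest levels outside the anther. In Ovule these were BniB006475, Bra038700 and BniB022880. Bra038700 had 579.9, 1288 and 1296 FPKM in Anther, 805, 1059 and 607 FPKM in Ovule and 1.51, 1.3 and 0.533 FPKM in Leaf, and its Anther and Ovule values overlapped while no Leaf library exceeded 1.51 FPKM. BniB022880 had 479, 700.3 and 622 FPKM in Anther, 567, 435 and 494 FPKM in Ovule and 234, 214 and 217 FPKM in Leaf. In Leaf the highest means were those of Bra013576, BniB045064 and Bra009595. BniB045064 had 596, 454 and 493 FPKM in Anther, 271, 325 and 443 FPKM in Ovule and 325, 287 and 304 FPKM in Leaf, with Anther above and Ovule overlapping Leaf.

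The other 120 members were at least 11.3-fold higher in Anther than in either other tissue. Among them the libraries of Anther itself differed, and they were divided by the ratio of Anther 2 to the mean of Anther 1 and 3. With limits of 0.5 and 1.5, again set after the values had been seen, 52 of these genes were low in Anther 2 (ratio of 0 to 0.394), 39 were even (0.580 up to the limit of 1.5) and 29 were high in Anther 2 (1.53 to 2.67). Of all 150 members, 4 had a ratio within 0.1 of 0.5 and 11 within 0.1 of 1.5, so the upper limit cuts a continuous range.

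Spread of this kind was wider among the 150 genes than among all genes tested. Anther 2 lay below 0.5 of the mean of Anther 1 and 3 for 54 members (36.0%), against 11.2% of the genes tested with reads in Anther, and above 1.5 for 31 members (20.7%), against 12.3%. The coefficient of variation over the 3 Anther libraries had a median of 37.2% for the members and 21.2% for the genes tested. In contrast, Anther 1 was within 1.5-fold of Anther 3 for 135 members (90.0%), against 72.7% of the genes tested. The latter include genes with few reads, and a gene at 0 in Anther 3 was counted as outside 1.5-fold. These shares are therefore not at like depth and do not show that the members were more even between Anther 1 and 3. Anther 2 was the lowest Anther library for 75 members and the highest for 55, so that it lay between the others for 20 members only. Of the genes tested with reads in Anther, 32.1% were lowest and 41.7% highest in Anther 2. Since the Anther mean entered the choice, these shares are a description.

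Genes low in Anther 2 had medians of 611, 96.8 and 636 FPKM in Anther 1, 2 and 3. Bol014756 had 3263, 0 and 1493 FPKM in Anther, 6.72, 9.02 and 90.3 FPKM in Ovule and no read in Leaf. BniB049103 had 558, 0 and 548 FPKM in Anther, 0, 1.48 and 3.48 FPKM in Ovule and no read in Leaf. These genes had no read in Anther 2, and Anther 1 and 3 were both far above it and above every Ovule library. The same was found for Bra020712, with 575, 0 and 455 FPKM in Anther, 0, 0.212 and 3.89 FPKM in Ovule and no read in Leaf. BniB021300 had 612, 0 and 308 FPKM in Anther, 0, 0.847 and 1.51 FPKM in Ovule and 0, 0.376 and 0 FPKM in Leaf. Bra024207 had 475, 0 and 351 FPKM in Anther, 0.453, 1.22 and 12.9 FPKM in Ovule and no read in Leaf, and with it the 5 members without a read in Anther 2 are complete. Other genes of this set kept reads in Anther 2. Bra038907 had 2445, 28.7 and 934 FPKM in Anther, 3.76, 14.2 and 44.1 FPKM in Ovule and no read in Leaf. Bol009974 had 2399, 427 and 2193 FPKM in Anther, 1.87, 5.21 and 19.7 FPKM in Ovule and no read in Leaf. In all of the 7 genes given here Ovule 3 was the highest and Ovule 1 the lowest Ovule library. Of the shared members, Bra004708 was also low in Anther 2, with 386, 52 and 417 FPKM in Anther, 52.9, 47 and 59 FPKM in Ovule and 3.39, 3.96 and 4.25 FPKM in Leaf, and it stood out in Ovule from the 52 by its even values.

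Genes high in Anther 2 had medians of 774, 1500.2 and 845 FPKM. The largest ratios to Anther 1 and 3 were those of Bra036330 (2.67) and BniB014004 (2.64), an A-genome and a B-genome gene that share a coding length of 1044 bases. Bra036330 had 162, 545 and 246 FPKM in Anther, 0, 0 and 0.443 FPKM in Ovule and no read in Leaf. BniB014004 had 283, 911 and 407 FPKM in Anther, 0.0617, 0 and 0.633 FPKM in Ovule and no read in Leaf. Both had Anther 1 lowest, Anther 3 intermediate and Anther 2 highest. Bra012819 followed (2.11), with 774, 1709 and 845 FPKM in Anther, 0, 0 and 0.355 FPKM in Ovule and 0, 0 and 0.561 FPKM in Leaf, and Bol025022, given above, had a ratio of 2.09. In contrast to the genes low in Anther 2, the 29 genes of this set were nearly absent from Ovule, where their highest value in any library was 5.96 FPKM. Their median coding length was 390.0 bases, against 828 bases for the even set and 1188 bases for the set low in Anther 2.

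**Figure D2:**
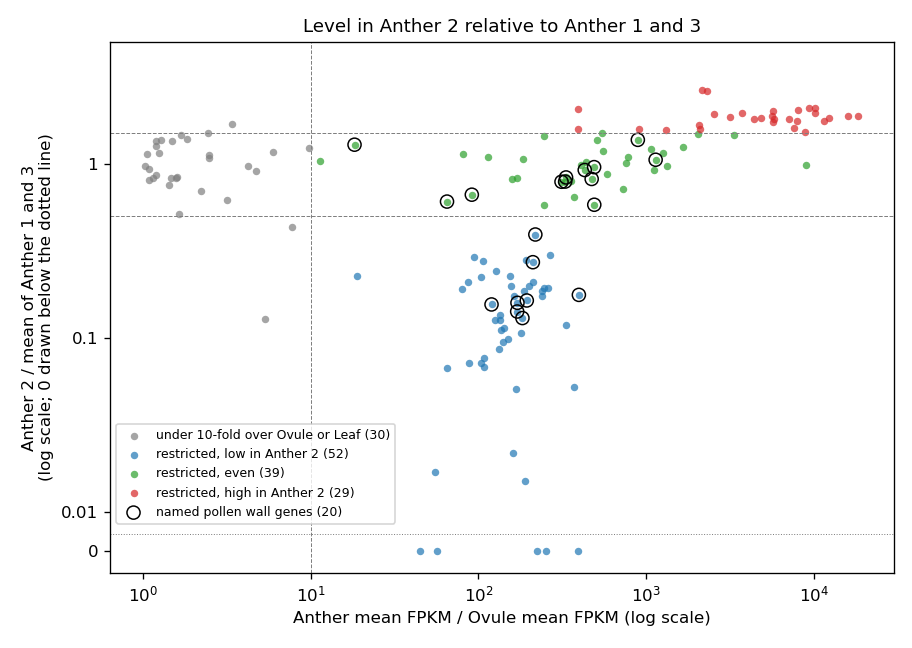
For each of the 150 genes the Anther 2 value relative to the mean of Anther 1 and 3 is drawn against the ratio of Anther mean to Ovule mean, both on log axes, with dashed lines at 10, 0.5 and 1.5 and circles around the 20 named pollen wall genes. Genes high in Anther 2 (red) have ratios to Ovule of 389.5 to 18314, genes low in Anther 2 (blue) of 18.8 to 396, and none of the circles lies in the red set or among the shared members (grey).

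The 20 members that the study names belong to 9 of the 12 gene names in its male list. They were 2 copies of AMS, 2 of ACOS5, 4 of LAP5, 2 of TKPR1, 2 of TKPR2, 1 each of CYP703A2, CYP704B1 and ABCG26, and 5 of MS2. No copy of MYB80, TDF1 or LAP6 was among the 150. Their copies had Anther means of 43.3 to 119 FPKM for MYB80 and 18.7 to 38.3 FPKM for TDF1, 2 transcription factors of the Arabidopsis tapetum, and of 178 to 246 FPKM for LAP6, a polyketide synthase. In all 20 members the lowest Anther library (67.8 FPKM) lay above the highest Ovule library (22.4 FPKM) and the highest Leaf library (11.7 FPKM).

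AMS encodes a bHLH transcription factor that directs tapetum development in Arabidopsis. Its copies Bol042692 and Bol004758, both of the C-genome, had 341, 421 and 270.0 FPKM and 332, 273 and 257 FPKM in Anther, and Anther 2 was the highest library of the first and neither highest nor lowest in the second. ACOS5 encodes an acyl-CoA synthetase that activates fatty acids for sporopollenin. BniB001185 had 613, 517 and 621 FPKM in Anther, 0, 0.917 and 4.35 FPKM in Ovule and no read in Leaf. Bra036646, the longest member with 4440 bases, had 302, 257 and 346 FPKM in Anther, 0.0435, 0.204 and 2.65 FPKM in Ovule and 0.0222, 0.0259 and 0 FPKM in Leaf. For both copies the Anther libraries were within a factor of 1.5 of each other and Ovule 3 was the highest Ovule library.

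LAP5 encodes a polyketide synthase of the next step. Bra011566 had 453, 295 and 558 FPKM in Anther. Bra017681 had 378, 409 and 474 FPKM in Anther, and BniB048407 had 273, 246 and 325 FPKM. The C-genome copy Bol034656 was the most even of the 4, with 409, 419 and 381 FPKM in Anther, 0, 0.055 and 1.01 FPKM in Ovule and no read in Leaf. The tetraketide reductases TKPR1 and TKPR2 act on the products of these synthases in Arabidopsis. TKPR1 was the most abundant of the named genes. Bra010535 had 1136, 928 and 1205 FPKM in Anther, 0.276, 1.53 and 8.15 FPKM in Ovule and 0.105, 0 and 0.112 FPKM in Leaf. BniB015834 had 1018, 704 and 1094 FPKM in Anther, 8.46, 10.6 and 11.8 FPKM in Ovule and 3.29, 3.58 and 3.49 FPKM in Leaf. Its B-genome copy was thus detected in every library and its A-genome copy was nearly absent from Leaf. Both TKPR2 members were detected in every library as well. Bol024018 had 446, 314 and 586 FPKM in Anther, 5.99, 6.81 and 7.9 FPKM in Ovule and 11.1, 11.4 and 10.1 FPKM in Leaf. BniB031910 had 329, 472 and 403 FPKM in Anther, 21.5, 21.9 and 22.4 FPKM in Ovule and 9.68, 11.7 and 11.7 FPKM in Leaf. Bol024018 was the only named gene with a higher mean in Leaf than in Ovule.

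The study measured LAP5 and TKPR2 by RT-qPCR as well, and its primers show which copies it aimed at. They are printed here as the only sequences at hand for any of the 150 genes, in lower case throughout, each 20 bases long and 5′ to 3′, and their place in the genome was not looked up.
LAP5 Bol034656 forward primer: gacgctgtaaccgaaatggc
LAP5 Bol034656 reverse primer: agtacaaatcgccaccaggg
TKPR2 BniB031910 forward primer: cgcttcaacctttggtacgc
TKPR2 BniB031910 reverse primer: caagcaatggaccaaccacg
Whether these primers also match the other copies of either gene was not tested.

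The remaining 8 named members were all low in Anther 2. CYP703A2 and CYP704B1 are cytochrome P450 enzymes that hydroxylate fatty acids in the tapetum. Bol040704 (CYP703A2) had 497, 75.9 and 476 FPKM in Anther, 0, 1.55 and 7.22 FPKM in Ovule and no read in Leaf. Bra004386 (CYP704B1) had 438, 127 and 495 FPKM in Anther, 0, 0.955 and 4.07 FPKM in Ovule and no read in Leaf. MS2 encodes a fatty acyl reductase that supplies fatty alcohols to the pollen wall. Its members Bol007277, Bol010336, Bra038691, Bra034793 and BniB035126 had 109, 84, 92.7, 67.8 and 76.3 FPKM in Anther 2. In Anther 1 and 3 the same 5 genes lay between 449 and 703 FPKM, and so the low level in Anther 2 was found in copies of the A-, B- and C-genome alike. ABCG26, the transporter that exports sporopollenin precursors from the tapetum, was represented by Bol015793 with 719, 252 and 559 FPKM in Anther, 0.0315, 1.52 and 5.46 FPKM in Ovule and no read in Leaf.

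Over the whole male list, members and others, the ratio of Anther 2 to Anther 1 and 3 was similar in the copies of most gene names. It was 0.122 to 0.177 for the 6 copies of MS2, 0.0961 to 0.302 for 5 of CYP703A2, 0.273 to 0.429 for 3 of CYP704B1, 0.350 to 0.389 for 3 of LAP6 and 0.352 to 0.394 for 3 of ABCG26. For 2 copies of ACOS5 it was 0.791 to 0.838, for 2 of TKPR1 0.667 to 0.793, for 8 of LAP5 0.532 to 1.39, for 6 of AMS 0.797 to 1.38 and for 6 of MYB80 0.699 to 1.23. The 3 copies of TDF1 alone were high in Anther 2 (1.90 to 2.07), and the 4 copies of TKPR2 varied most (0.290 to 1.29). These ranges are a description of 1 library against the others and carry no test.

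**Figure D3:**
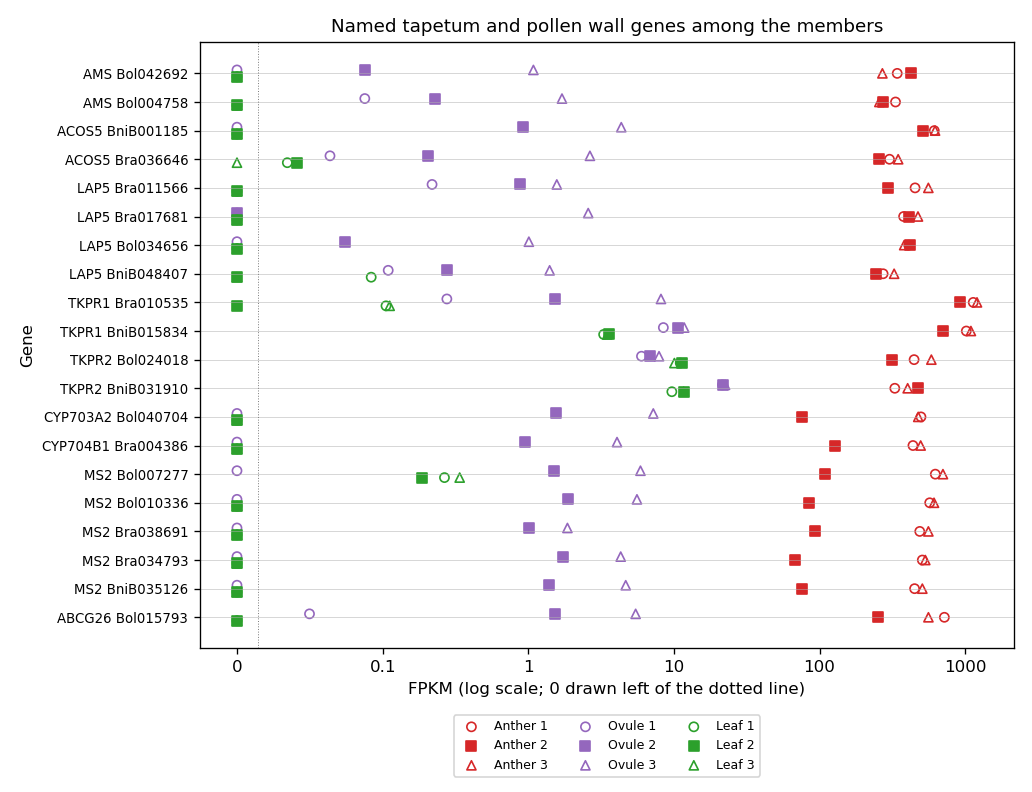
FPKM (log axis) of the 20 named tapetum and pollen wall genes among the members in each library, with Anther in red, Ovule in purple and Leaf in green; circles, squares and triangles mark libraries 1, 2 and 3, and library 2 is filled. The filled red squares fall to the left of the other red points in the lower 8 rows (CYP703A2, CYP704B1, MS2 and ABCG26), and the purple triangles (Ovule 3) are the highest Ovule values in all 20 rows.

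The Ovule libraries differed in the members as well. Ovule 3 was the highest Ovule library for 127 of the 150 genes (84.7%), against 35.4% of the genes tested with reads in Ovule. This was found for 52 of 52 genes low in Anther 2, 38 of 39 even genes and 27 of 29 genes high in Anther 2, but for only 10 of the 30 shared members. The 120 genes at least 10-fold higher in Anther had medians of 0, 0.934 and 4.05 FPKM in Ovule 1, 2 and 3, and in 96 of them the 3 libraries differed in this order. The rule itself depends on these libraries: without Ovule 3 it would have taken 135 of the 150 genes, and 9 of the 15 lost were high in Anther 2. Of the 150 members, 87, 131 and 150 had a read in Ovule 1, 2 and 3, whereas 52, 54 and 55 had one in the 3 Leaf libraries.

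Expressed as a share of the Anther mean, the Ovule 3 level had a median of 1.73% in genes low in Anther 2, 0.514% in even genes and 0.0393% in genes high in Anther 2. In shared members it was 57.0%. The fraction of the Anther level found in Ovule 3 thus differed between the sets, and genes low in Anther 2 had the highest fraction of the 3 sets that were at least 10-fold higher in Anther. The summed expression of the male list was 40.8, 67.0 and 145 FPKM in Ovule 1, 2 and 3. Its 20 genes that are members gave 36.7, 55.0 and 106 FPKM of these sums. The 31 genes of the list that are not members moved in the same direction, with 4.06, 12.0 and 39.7 FPKM. The 1 gene of 51 still at 0 in Ovule 3 was a copy of TDF1 (Bol042967). The part of anther transcripts in the Ovule values of the members was not tested.

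Ovule and Leaf were then compared by limma on log2(FPKM + 0.1), in 1 fit to all 75038 genes that reached 0.5 FPKM in at least 3 libraries, which included all 150 members. A call required a 2-fold difference or more together with an adjusted p (Benjamini-Hochberg) of no more than 0.05. Of the 150 genes, 88 (58.7%) were called higher in Ovule than in Leaf, where 36.8% of all genes tested were called in this direction. These counts are a description, because the choice fixed part of the direction: every member had to have a read in Ovule or Leaf, so the 86 without a Leaf read had to have Ovule reads. Of the 150 genes, 96 reached the minimum of 0.5 FPKM in 3 libraries only with the Anther libraries, and 48 of the 88 calls were among them. That is 50% of the 96, against 21.4% of all genes tested that reached the minimum in this way. In Ovule and Leaf libraries alone 54 members reached it, and 40 of them (74.1%) were called, against 38.3% of such genes. These shares are a description as well. None (0) of the 150 genes was called higher in Leaf, also with limma voom on the recovered reads, against 14.8% of all genes tested. At an unadjusted limma p below 0.05, 104 members were higher in Ovule and 2 in Leaf. Of all 75038 genes tested, 38939 were higher in Ovule and 14608 in Leaf at this limit. On the log2(FPKM + 0.1) scale, which understates differences between low values, the median difference (Ovule minus Leaf) was 2.45 over the members and 0.66 over all genes tested. Of the 150 members, 71 were higher in Ovule without overlap between Ovule and Leaf. This was a smaller share than the 53.3% of all genes tested. A gene at 0 in any Ovule library cannot count here, and only 82 of the 150 members had a read in every Ovule library. This measure therefore cannot show whether the members had an excess. Another 3 members were higher in Leaf without overlap, and the share of all genes in that direction was not counted.

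The calls held different kinds of genes. Of the 88, 40 reached the minimum in Ovule and Leaf libraries alone, 28 had an Ovule mean of at least 10 FPKM, 60 were below 10 FPKM and 17 of these below 1 FPKM. In 65 the Ovule and Leaf libraries did not overlap, in 23 they overlapped, and 47 had no read in Leaf. Shared members gave 21 of the calls, genes low in Anther 2 gave 30, even genes 25 and genes high in Anther 2 gave 12. Without Ovule 3, in which most members were highest, 56 members (37.3%) were called, close to the 35.7% of all genes called in that fit, and 20 of them were shared, 9 low in Anther 2, 19 even and 8 high in Anther 2. Calls among the shared members numbered 20 to 22 whichever library was left out. Calls among genes low in Anther 2 numbered 46 without Ovule 1, 12 without Ovule 2 and 9 without Ovule 3. They numbered 14 or 15 without any 1 Leaf library, and 28, 41 and 22 without Anther 1, 2 and 3. All 9 libraries share an estimate of spread in the fit, so the Anther 2 values that define this set also entered its calls.

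Over 18 other settings of the test, 22 of the 88 genes were called in every one, namely 15 shared members, 1 gene low in Anther 2, 4 even genes and 2 genes high in Anther 2. Rescaling the libraries by median-of-ratios factors lowered the median difference over all genes tested to 0.06, and 66 members were then called higher in Ovule and 2 higher in Leaf (TKPR2 Bol024018 and Bra036244), against 20.8% and 21.9% of all genes. A limma voom fit of the recovered reads called 33 members (22.0%), 21 of them shared, which was fewer than the 35.2% of all genes called in it. The higher share among the members than among all genes thus did not hold in every setting.

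The clearest difference was that of Bra038700, described above, with 824 ± 227 FPKM in Ovule and 1.11 ± 0.513 FPKM in Leaf (SD, n = 3 each; log2 difference 9.48 ± 0.41, adjusted p = 1.17e-07, limma, with the SE of the difference). It was higher in 3 of 3 Ovule libraries than in any Leaf library. BniB006475, the fourth most abundant member, had 4005 ± 1081 FPKM in Ovule and 189.9 ± 8.14 FPKM in Leaf (log2 difference 4.36 ± 0.42, adjusted p = 1.33e-05, limma). Both genes were called under each of the 18 other settings. The other 4 of the 5 largest differences among called members concerned genes without a read in Leaf. Bol014756, also without a read in Leaf, had a larger difference than these 4 (log2 7.47 ± 3.25, SE). It was not called (limma adjusted p = 0.0647), and all 9 libraries entered its SE, including Anther 2 with no read. For Bra038907, with 3.76, 14.2 and 44.1 FPKM in Ovule, the log2 difference was 7.07 ± 1.44 (SE; limma adjusted p = 0.00166), and for Bra009282 it was 6.25 ± 1.37 (limma adjusted p = 0.00261). Bra040627 and Bol009974 differed by 6.22 ± 0.68 and 5.89 ± 0.83 (limma adjusted p = 3.09e-05 and 0.000161). Fitted differences of these 4 genes depend on the value of 0.1 added to each FPKM, because Leaf was at 0. Of the 4, Bra040627 was called under all 18 other settings, and the other 3 under all but limma voom on recovered reads (adjusted p of 0.122 to 0.443).

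Among other shared members the differences were smaller. Bra009595 had 472 ± 100.4 FPKM in Ovule and 224 ± 1.79 FPKM in Leaf (log2 difference 1.05 ± 0.22, adjusted p = 0.00171, limma). BniB022880 had 499 ± 65.8 FPKM in Ovule and 222 ± 10.5 FPKM in Leaf (log2 difference 1.16 ± 0.18, adjusted p = 0.00035, limma). After rescaling by median-of-ratios factors neither reached 2-fold, and Bra009595 was also below 2-fold without Ovule 3. Bra034603 also passed the limma adjusted p (0.000726) and was not called, since its difference of 0.67 ± 0.12 (log2, SE) stayed below 2-fold. Bra013576 and BniB045064 did not pass, with log2 differences of -0.30 ± 0.24 and 0.15 ± 0.20. In 6 members the mean was higher in Leaf than in Ovule. Among these, Bra036244 had 83.6, 58.1 and 58.3 FPKM in Ovule and 127, 129 and 117 FPKM in Leaf without overlap (log2 difference -0.92 ± 0.16, adjusted p = 0.000547, below 2-fold). It was called higher in Leaf when the libraries were rescaled and when Ovule 1 was left out, and was singled out after its values had been seen.

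Among the 20 named genes, 13 were called higher in Ovule (36.8% of all genes tested were) and 0 higher in Leaf. In 6 of the 13 the libraries of Ovule and Leaf did not overlap, as in 65 of the 88 called members. The 53.3% of all genes tested that were higher in Ovule without overlap includes genes not called, so it is no background for these 6. Of the 20 named genes, 11 were at 0 in Ovule 1 and so could not be higher in Ovule without overlap. All but 1 of the 13 reached the minimum level only with the Anther libraries. Over the whole male list 24 of 51 genes were called higher in Ovule and 0 higher in Leaf. TKPR1 was called for both copies, with log2 differences of 3.39 ± 0.88 for Bra010535 and 1.53 ± 0.18 for BniB015834 (limma adjusted p = 0.00672 and 4.64e-05). The call for Bra010535 was lost with limma voom on recovered reads, and that for BniB015834 after rescaling. TKPR2 was called for neither copy. For BniB031910 the Ovule libraries lay above the Leaf libraries by 0.99 ± 0.14 (log2, SE), just below 2-fold, and for Bol024018 the difference was -0.65 ± 0.21. In MS2, 4 of the 5 members were called higher in Ovule, with limma adjusted p of 0.0421 to 0.0474, and none of them was free of overlap with Leaf since Ovule 1 and Leaf were both at 0. They were called under 4 to 7 of the 18 other settings only.

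**Figure D4:**
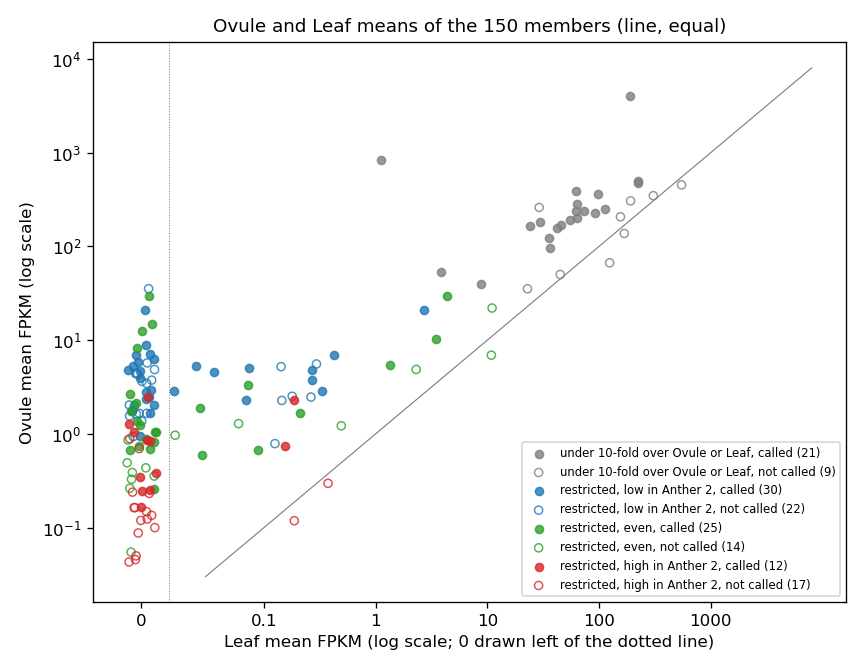
Mean FPKM in Ovule (vertical log axis) and Leaf (horizontal log axis) of the 150 genes by set, filled where limma called the gene higher in Ovule, with the grey line at equal means and genes without a Leaf read drawn left of the dotted line. The 21 called shared members (filled grey) lie at Ovule means of at least 39.9 FPKM, most other called genes lie below 10 FPKM, and 6 genes lie under the line.

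By subgenome, 62 of the 150 genes (41.3%) belonged to the A-genome, 42 (28.0%) to the B-genome and 46 (30.7%) to the C-genome. All genes tested divided into 35.3%, 35.9% and 28.8%, and the 32302 genes from which the 150 were taken into 34.9%, 36.4% and 28.7%. The A-genome was thus more frequent among the members than among the genes tested, a difference that was not tested since copies of 1 gene are not independent. Anther means were similar in the 3 subgenomes, with medians of 459, 519.5 and 507 FPKM for A, B and C. A-genome genes made up 16 of the 30 shared members and 14 of the 29 genes high in Anther 2, against 7 and 9 for the B-genome and 7 and 6 for the C-genome. Genes low in Anther 2 divided more evenly, into 19, 16 and 17.

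The members were short. Their coding length, obtained from the FPKM steps, had a median of 744 bases and ranged from 183 bases (Bol008912) to 4440 bases (Bra036646), against a median of 1056 bases for all genes tested. FPKM divides reads by length, and ranking the genes by reads per gene in place of FPKM kept 111 of the 150. Shared members and genes high in Anther 2 were the shortest sets, with medians of 466.5 and 390.0 bases.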

How the data were processed

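FPKM values of 9 RNA-Seq libraries were used as deposited by the authors, who used HISAT2 2.1.0 with the B. rapa, B. nigra and B. oleracea genomes as 1 reference, HTSeq 0.6.0 for reads per gene, and then FPKM, with no stated scaling. The labels also list StringTie 1.3.2 without saying what it was used for.

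The members and lists were chosen with earlier results of these data known. Values were whole reads times a step for all 100804 genes (tolerance 0.01 read), and 99.8% of the resulting lengths were divisible by 3, so they are called coding lengths. Recovered reads served for depth, floors, lengths and limma voom. Shares and ratios carry no test. Ovule and Leaf were compared with limma 3.58.1 (R 4.3.3) after adding 0.1 to FPKM and taking log2. All 9 libraries were in 1 model without a replicate block, where 3 or more libraries reached 0.5 FPKM. The fit was also run on simulated data with the same spread setting for every gene. That simulation did not cover genes as uneven between libraries, or as low in Ovule and Leaf, as many members. Thresholds were those of the study, whose count test was not run on these FPKM. Intervals are 95% exact Poisson (scipy 1.17.1). Python 3.11.15, pandas 2.3.3, numpy 2.4.6 and matplotlib 3.10.9 did the rest.

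Genes named are the 10 most abundant members, 3 on each side of the limit, the 5 highest and lowest ratios to the other tissues, the study's named genes, the 5 largest called Ovule differences, the 4 highest and lowest Anther 2 ratios and the 3 highest in Ovule and in Leaf. Bra024207, Bra004708, Bra036244, Bol008912 and the 4 genes left out for lack of Ovule and Leaf reads were added after their values were seen. Alternatives were other pseudocounts and filters, rescaling, a replicate block, 2 tissues only, limma voom and treat, other rankings, and leaving out each library. No genome or annotation was used here.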

Additional observations from a re-analysis of the deposited data

How the results depend on the processing

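Of the 150 genes, 88 were called higher in Ovule than in Leaf. This number was 44 with a pseudocount of 1 (29.3% of members, against 26.9% of all genes called in that fit), 57 with only the Ovule and Leaf libraries (38.0%, against 35.9%), 33 with limma voom on recovered reads (22.0%, against 35.2%) and 46 with limma treat (30.7%, against 20.9%). With single libraries left out it was 56 (37.3%, against 35.7%, without Ovule 3) to 114 (76.0%, against 35.5%, without Ovule 1), and it lay between 66 and 105 under the other settings. The excess over all genes was therefore near 0 in 3 of these settings and reversed with limma voom. Calls higher in Leaf, 0 at first, numbered 2 after median-of-ratios rescaling and 0 to 1 with single libraries left out. With the replicate block 92 members were called, 86 of them also called without it. Deviations of same-numbered libraries correlated at -0.0947 to 0.161, and those of differently numbered libraries at -0.122 to 0.150. Each tissue had only 3 libraries, and the Leaf libraries differed by little more than counting error. These correlations therefore cannot decide whether equal numbers pair the samples. The share of summed FPKM held by the members was 8.74% in Anther, 0.685% in Ovule and 0.257% in Leaf without the 10 most abundant members, and 0.657%, 0.193% and 0.116% as a share of summed log2(FPKM + 1). The rule took 132 (without Anther 2) to 150 of the same genes when single libraries were left out, and 111 when ranked by reads. For BniB045064 the Ovule minus Leaf difference of 0.15 (log2) was -0.50 after rescaling and between -0.039 (without Ovule 3) and 0.32 (without Ovule 1) with single libraries left out, and it was called under none of these. Over 30 single genes and all settings, 422 results kept their call and direction, 104 lost and 12 gained a call, and these 2 changed sign. With 24 members at 10 or fewer Ovule reads, depth limits their ratios.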
